A study of Mus musculus with 12 samples.

Results

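The genes described here encode the machinery that builds fatty acids from acetyl-CoA in the cytosol, together with a transcription factor that drives it. They were fixed by name as the 10 genes *Acly*, *Me1*, *Acaca*, *Acacb*, *Thrsp*, *Mid1ip1*, *Fasn*, *Elovl6*, *Scd1* and *Srebf1*. All 10 were found in each library, among 22273 gene symbols in gastrocnemius and 22252 in liver and in gonadal white adipose tissue (WAT). The male mice were backcrossed to C57BL/6J, and both genotypes carried a floxed exon of *Nr3c1*, the gene of the glucocorticoid receptor (GR). GRfl/fl mice had no Cre, and GR-mKO mice had *Acta1*-Cre, driven by the skeletal actin promoter, which removes the exon in muscle fibers and leaves other cells of the muscle, the liver and the fat with an intact receptor. From 8 weeks of age, mice drank 1% ethanol in water (vehicle) or the same solution with corticosterone (CORT) at 100 µg/mL for 4 weeks. Each of the 12 combinations of tissue, genotype and treatment had 1 library, prepared from RNA of 3 mice mixed in 1 pool. No spread between mice or pools could therefore be measured, and no p value is given. Values are estimated counts scaled to the library total (CPM), and intervals in parentheses are 95% intervals for counting error only. Genes were said to rise or fall when log2(CPM + 0.5) differed by at least 1, which is 2-fold on that scale.

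Cytosolic fatty acid synthesis uses citrate exported from mitochondria as its source of acetyl-CoA and NADPH as its reductant, and its committed step is the carboxylation of acetyl-CoA to malonyl-CoA. In liver and fat the pathway is known to be controlled by feeding, with insulin acting through SREBP-1c and glucose through ChREBP. SREBP-1c is itself activated by proteolytic cleavage, which transcript levels do not show. Glucocorticoids are known to raise plasma insulin when given over weeks, and muscle is not usually counted among the main sites of lipogenesis.

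*Acly* (chromosome 11, 100476353 to 100528000) encodes ATP citrate lyase, which makes cytosolic acetyl-CoA. *Me1* (chromosome 9, 86581371 to 86695953) encodes malic enzyme, a source of NADPH. *Acaca* (chromosome 11, 84129672 to 84401651) encodes acetyl-CoA carboxylase 1, the cytosolic form that feeds synthesis. *Acacb* (chromosome 5, 114146535 to 114250761) encodes acetyl-CoA carboxylase 2, the form at the mitochondrial surface whose malonyl-CoA restrains fatty acid oxidation. *Mid1ip1* (chromosome X, 10715013 to 10719690) encodes MIG12, a small protein that promotes polymerization of acetyl-CoA carboxylase. *Thrsp* (chromosome 7, 97412938 to 97417730) encodes Spot 14, its homolog. *Fasn* (chromosome 11, 120805846 to 120824547) encodes fatty acid synthase, which makes palmitate. *Elovl6* (chromosome 3, 129532355 to 129638495) and *Scd1* (chromosome 19, 44394455 to 44407879) encode the elongase and the desaturase that turn palmitate into stearate and then oleate. *Srebf1* (chromosome 11, 60199089 to 60222581) encodes the SREBP-1 transcription factors. Positions are those of the gene on GRCm38.

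Promoter sequence was available from RefSeq (GRCm38.p6) for 9 of the 10 genes, at 12 transcription starts, and the 250 bases before each start were searched on both strands. The sterol regulatory element TCACNCCAC was found before 0 of the 12 starts and in 1.05% of 32851 promoters of the same length, and the E-box CACGTG before 0 of 12 and in 6.02%. A CCAAT box stood before 6 of the 12 starts, against 33.8% of all promoters, and a GC box (GGGCGG) before 5 of 12, against 32.7%. The GR half-site AGAACA was present before 2 of 12 starts (*Acaca* and *Mid1ip1*), against 16.1%, and the nuclear receptor half-site AGGTCA before 2 of 12 (*Acly* and *Elovl6*), against 14.0%. Such matches describe letters and are not binding sites, and a missing match says nothing about a factor. Below are 3 promoters on the minus strand, written 5′ to 3′ and ending at the base before the start. Those of *Fasn* (chr11:120824548-120824797) and *Thrsp* (chr7:97417551-97417800) belong to genes that rose together with CORT in GRfl/fl liver. That of *Srebf1* (chr11:60210472-60210721) is 1 of 3 starts of the gene, which was lower in the same library. The transcripts listed for these genes in liver begin elsewhere, at 120824095 for *Fasn*, 97417730 for *Thrsp* and 60207188 for *Srebf1*. Capitals mark CCAAT boxes (CCAAT or ATTGG) and GC boxes (GGGCGG or CCGCCC).
Fasn: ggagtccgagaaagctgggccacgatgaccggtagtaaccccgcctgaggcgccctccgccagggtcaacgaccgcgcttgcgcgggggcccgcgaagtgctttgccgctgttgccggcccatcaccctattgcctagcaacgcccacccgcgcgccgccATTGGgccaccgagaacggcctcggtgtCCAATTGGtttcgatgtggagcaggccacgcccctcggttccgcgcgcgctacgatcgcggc
Thrsp: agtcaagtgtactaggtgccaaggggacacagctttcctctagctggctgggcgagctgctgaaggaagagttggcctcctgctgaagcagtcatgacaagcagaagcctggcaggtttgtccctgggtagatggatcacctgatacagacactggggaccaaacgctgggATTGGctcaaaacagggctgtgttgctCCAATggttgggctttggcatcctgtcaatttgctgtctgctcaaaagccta
Srebf1: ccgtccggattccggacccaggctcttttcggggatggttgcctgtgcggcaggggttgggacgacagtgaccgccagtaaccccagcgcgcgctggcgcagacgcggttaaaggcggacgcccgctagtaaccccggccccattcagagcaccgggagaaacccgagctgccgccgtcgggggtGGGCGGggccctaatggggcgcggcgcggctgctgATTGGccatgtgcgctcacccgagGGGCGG
In *Fasn* the CCAAT letters began 90, 62 and 59 bases before the start, the last pair overlapping on opposite strands. *Thrsp* had them at 79 and 52 bases, and this *Srebf1* start had them at 30 bases with GC boxes at 65 and 6 bases.

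The 12 libraries held 19394572 to 20940660 estimated counts, and 3 counts, taken as the floor, equalled 0.143 to 0.155 CPM. Fiber markers summed to 77545 to 111563 CPM in gastrocnemius, hepatocyte markers to 90080 to 155210 CPM in liver and adipocyte markers to 38211 to 63146 CPM in gonadal WAT, as the labels have it. Epididymis markers summed to 1.60 CPM or less in gonadal WAT. *Nr3c1* stood at 46.4 and 35.5 CPM in the gastrocnemius of vehicle- and CORT-treated GR-mKO mice against 112.7 and 90.4 CPM in that of GRfl/fl mice, and transcripts without the deleted exon are still counted. It ranged from 45.2 to 60.9 CPM in liver and from 111.1 to 158.2 CPM in gonadal WAT. In tissue RNA, fewer cells of a type and less RNA per cell cannot be told apart.

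Summed over the 10 genes, transcripts made up between 0.0775% and 0.200% of a gastrocnemius library, between 0.698% and 1.05% of a liver library and between 3.16% and 4.26% of a gonadal WAT library. *Scd1* alone took 2.60% to 3.40% of the counts in gonadal WAT. Levels in different tissues are compared here as shares of each library. In vehicle-treated GRfl/fl mice *Fasn* stood 115 times higher in gonadal WAT than in gastrocnemius and 44.7 times higher than in liver. *Scd1* stood 183 times higher in gonadal WAT than in gastrocnemius, and *Thrsp* 59.5 times higher. *Acacb* was highest in gastrocnemius in these mice, since its level in liver was 0.122 times and in gonadal WAT 0.768 times that in gastrocnemius, while vehicle-treated GR-mKO mice had more of it in gonadal WAT (216.7 CPM) than in gastrocnemius (163.9 CPM). For *Fasn*, *Acaca*, *Acly*, *Scd1*, *Thrsp* and *Me1* the lowest gonadal WAT library exceeded the highest library of each other tissue, by 1.52-fold at least. *Mid1ip1* did not separate these tissues, because its libraries overlapped between all 3.

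Between genes, levels were compared per kilobase of the transcript listed. In vehicle-treated GRfl/fl mice *Me1* led in gastrocnemius at 89.6 CPM per kb, ahead of *Scd1* at 37.4 and *Acacb* at 26.6 CPM per kb, while *Elovl6* was lowest at 0.574 CPM per kb. *Scd1* led in liver at 1290 CPM per kb and in gonadal WAT at 6847 CPM per kb, followed in both by *Thrsp* at 176.8 and 876.1 CPM per kb. *Acacb* was lowest in liver at 3.25 CPM per kb. Neighbors in this order that lay close were *Mid1ip1* and *Srebf1* in gastrocnemius (10.3 and 10.2 CPM per kb) and *Mid1ip1* and *Elovl6* in gonadal WAT (16.4 and 16.1 CPM per kb), and with 1 library a group no spread between pools is known for them. *Srebf1* was listed under different transcripts in the 3 tissues. In gastrocnemius it was ENSMUST00000020846, which begins at 60220604, and in liver and gonadal WAT it was ENSMUST00000134660, which begins at 60207188, so SREBP-1a and SREBP-1c forms cannot be told apart here and its level is not compared between muscle and the other tissues.

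**Figure D1:**
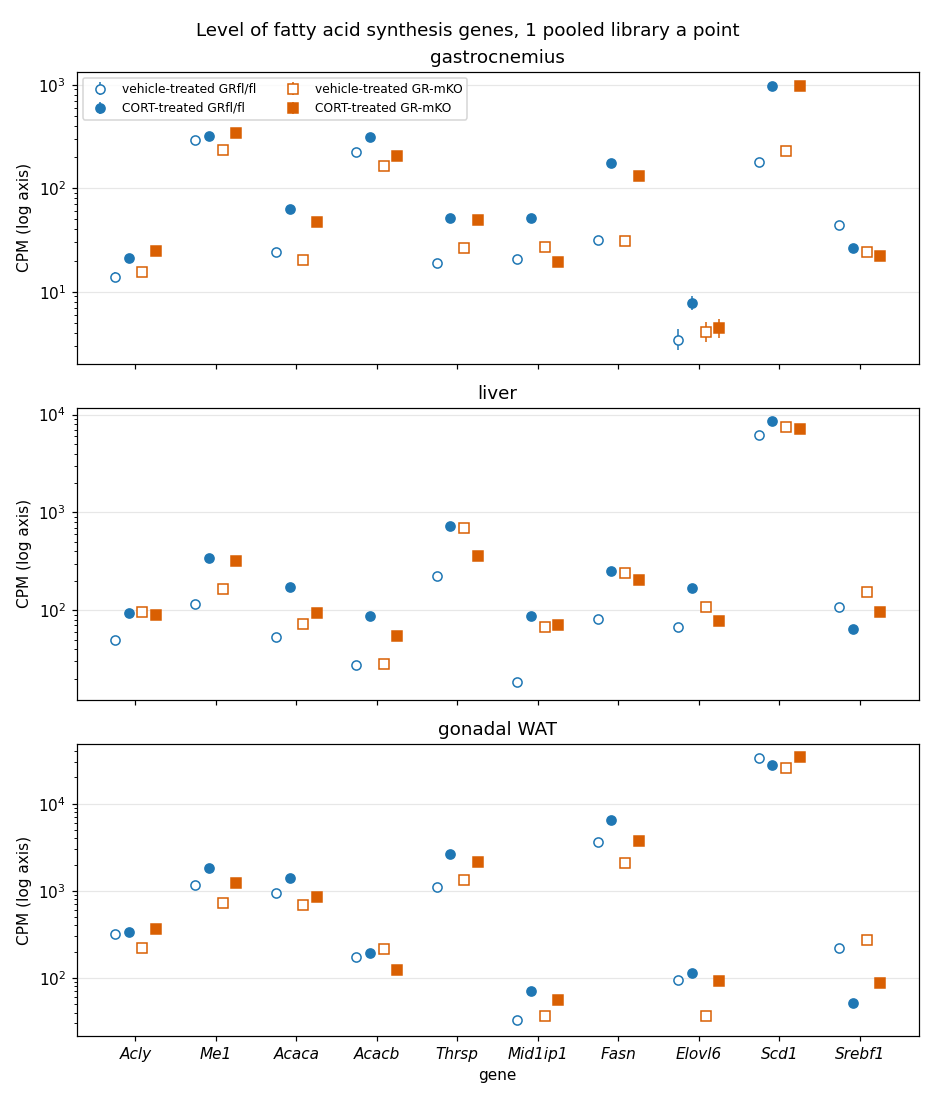
Level of each gene in the 12 libraries, in CPM on a log axis, with 1 panel a tissue. Blue circles are GRfl/fl and orange squares GR-mKO libraries, open for vehicle and filled for CORT, and bars are 95% Wilson counting intervals. In liver the open circle, vehicle-treated GRfl/fl, is lowest for 9 of the 10 genes.

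To ask whether CORT acts on hepatic lipogenesis and whether muscle GR bears on it, liver libraries were compared first. In GRfl/fl mice 7 of the 10 genes rose with CORT and 0 fell, against 5.90% higher and 5.72% lower among all 12485 genes tested. The median log2 change of the 10 genes was 1.59, while that of all genes was 0.00. In GR-mKO mice 0 of 10 rose and 0 fell with CORT, against 2.80% and 2.82% of all genes, and the median of the 10 was -0.09 beside 0.05 for all genes. Under vehicle, 3 of the 10 genes (*Fasn*, *Thrsp* and *Mid1ip1*) were at least 2-fold higher in GR-mKO than in GRfl/fl liver and 0 were lower, against 1.26% and 1.04% of all genes. Under CORT, 0 were higher and 2 (*Elovl6* and *Thrsp*) were lower, against 2.44% and 2.27% of all genes.

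The substrate enzymes were followed first in liver. *Acly* stood at 49.3 CPM in vehicle- and 94.0 CPM in CORT-treated GRfl/fl mice, and at 97.1 and 88.7 CPM in the corresponding GR-mKO mice. The vehicle-treated GRfl/fl library was thus the low one, and neither CORT (log2 change 0.93, 0.82 to 1.04) nor genotype under vehicle (0.97, 0.87 to 1.09) passed 2-fold. *Me1* stood at 116.8 and 344.1 CPM in vehicle- and CORT-treated GRfl/fl liver and at 165.5 and 318.7 CPM in GR-mKO liver. It rose with CORT in GRfl/fl mice (1.55, 1.49 to 1.63), and its change of 0.94 (0.89 to 1.01) in GR-mKO mice lay just under 2-fold, so the CORT-treated libraries were the high ones in both genotypes.

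The carboxylases and their small partner proteins came next. *Acaca* stood at 53.0 and 173.2 CPM in vehicle- and CORT-treated GRfl/fl liver and at 73.2 and 94.4 CPM in GR-mKO liver, with log2 changes of 1.70 (1.61 to 1.81) and 0.37 (0.27 to 0.47). *Acacb* stood at 27.6 and 87.0 CPM in GRfl/fl liver and at 28.5 and 54.7 CPM in GR-mKO liver, with changes of 1.64 (1.52 to 1.80) and 0.93 (0.80 to 1.09). Both carboxylases were therefore highest in CORT-treated GRfl/fl liver and intermediate in CORT-treated GR-mKO liver. *Thrsp* stood at 225.8 and 735.6 CPM in vehicle- and CORT-treated GRfl/fl liver and at 697.1 and 359.8 CPM in GR-mKO liver. Its order thus reversed between genotypes, with a change of 1.70 (1.66 to 1.75) in GRfl/fl mice and of -0.95 (-0.995 to -0.91) in GR-mKO mice. With factors of the trimmed mean of M values (TMM) the latter was -1.02, past 2-fold. *Mid1ip1* stood at 18.4 and 86.8 CPM in GRfl/fl liver and at 66.8 and 71.6 CPM in GR-mKO liver. Its rise of 2.21 (2.08 to 2.40) was the largest of the 10 genes in liver, and its GR-mKO libraries differed by 0.10 (-0.01 to 0.21).

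*Fasn* stood at 81.2 CPM in vehicle- and 252.5 CPM in CORT-treated GRfl/fl liver and at 240.9 and 202.2 CPM in GR-mKO liver. It rose by 1.63 (1.56 to 1.72) in GRfl/fl mice and differed by -0.25 (-0.31 to -0.19) in GR-mKO mice, and 3 of the 4 libraries lay within a narrow range above the vehicle-treated GRfl/fl one. *Elovl6* stood at 67.4 and 168.2 CPM in GRfl/fl liver and at 108.7 and 77.9 CPM in GR-mKO liver, with changes of 1.31 (1.23 to 1.41) and -0.48 (-0.57 to -0.39). *Scd1*, the highest of the 10 per kilobase in liver, stood at 6233 and 8520 CPM in GRfl/fl mice and at 7410 and 7182 CPM in GR-mKO mice. Its change of 0.45 (0.44 to 0.46) in GRfl/fl mice was the smallest increase among the enzymes. *Srebf1* went the other way, at 107.0 and 64.8 CPM in vehicle- and CORT-treated GRfl/fl liver and at 155.2 and 96.0 CPM in GR-mKO liver. Its differences of -0.72 (-0.82 to -0.62) and -0.69 (-0.78 to -0.61) did not pass 2-fold, and it was lower under CORT in each genotype.

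**Figure D2:**
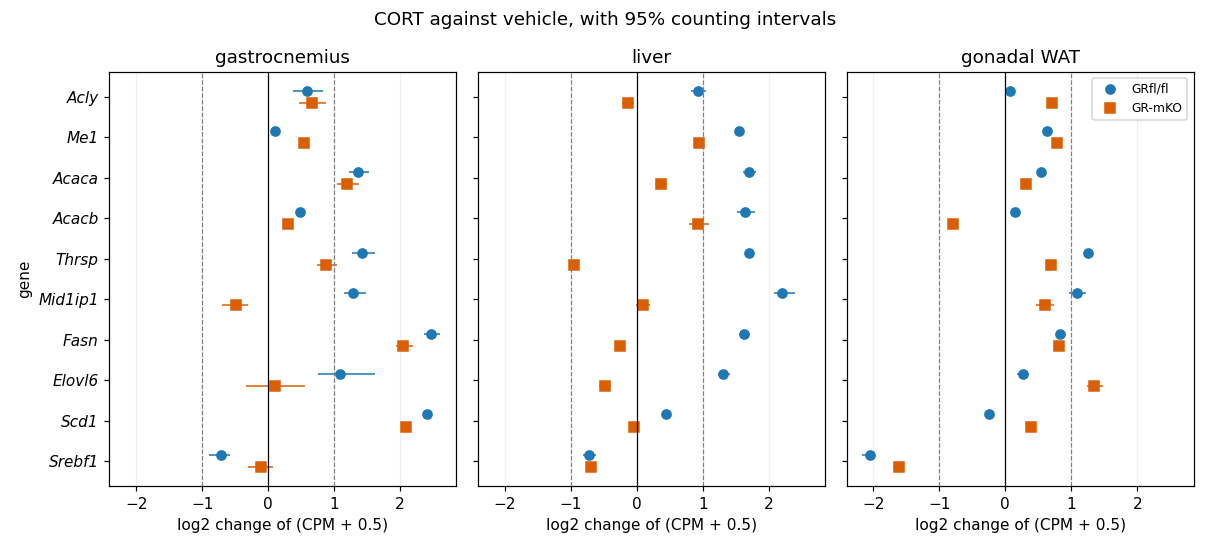
Log2 change of (CPM + 0.5) with CORT for each gene, with 1 panel a tissue, blue circles for GRfl/fl and orange squares for GR-mKO mice. Lines are 95% exact counting intervals of the ratio and dashed lines mark 2-fold. In liver 9 of the 10 blue circles lie above 0, from 0.45 to 2.21, and *Srebf1* lies at -0.72.

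The vehicle-treated GRfl/fl liver library was the lowest of the 4 for 9 of the 10 genes, all but *Srebf1*, and the CORT-treated GRfl/fl library was the highest for 8. The comparison with CORT in GRfl/fl mice and that of genotypes under vehicle share this library, so 1 pool of 3 mice enters both. Both GRfl/fl liver libraries also bear sample numbers set apart from those of all other libraries. Whether they were handled apart is not stated, and any such difference could not be told apart from genotype in liver. The 2 comparisons that do not use it gave a median of -0.09 for CORT in GR-mKO mice and of -0.30 for genotype under CORT. Under vehicle all 10 genes were nominally higher in GR-mKO liver, with log2 differences from 0.05 for *Acacb* to 1.84 for *Mid1ip1* and a median of 0.61 beside 0.03 for all genes. *Fasn* differed by 1.56 (1.49 to 1.65) and *Thrsp* by 1.62 (1.58 to 1.67). Under CORT 9 of 10 were nominally lower in GR-mKO liver, of which *Elovl6* (-1.11, -1.197 to -1.03) and *Thrsp* (-1.03, -1.07 to -0.99) passed 2-fold, and *Acaca* differed by -0.87 (-0.96 to -0.80). *Srebf1* was the exception, at 0.56 (0.47 to 0.67). Summed hepatocyte markers differed by 0.45 with CORT in GRfl/fl liver and by 0.46 in GR-mKO liver, and macrophage markers by -1.90 and -0.79. *Alb* made up the largest part of the hepatocyte sum, at 49853 and 83251 CPM in GRfl/fl and at 71267 and 111499 CPM in GR-mKO liver. The medians of the 8 hepatocyte markers were 0.17 and 0.05. The part of cell makeup in these results was not tested. *Adipoq* and *Plin1* stood at 0 to 0.269 CPM in the liver libraries.

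Genes of the wider pathway were taken from 6 lists with 50 genes, of which 45 were tested in liver. In GRfl/fl liver 6 rose and 6 fell with CORT, against 5.90% and 5.72% of all genes, and in GR-mKO liver 3 rose and 6 fell, against 2.80% and 2.82%. Among carbohydrate-linked genes, 2 of 3 rose in GRfl/fl and 2 of 3 in GR-mKO liver, with medians of 1.92 and 1.16. *Pklr*, liver pyruvate kinase and a known ChREBP target, stood at 118.5 and 683.4 CPM in vehicle- and CORT-treated GRfl/fl liver and at 173.3 and 410.9 CPM in GR-mKO liver. *Khk*, ketohexokinase, rose by 1.92 (1.86 to 1.98) and 1.16 (1.11 to 1.22). *Pklr* and *Khk* thus rose with CORT in both genotypes, whereas *Fasn* and *Thrsp* stood lower under CORT in GR-mKO liver.

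Regulators of lipogenic transcription were mixed. With CORT, 3 of 12 were higher and 1 lower in GRfl/fl liver, against 5.90% and 5.72% of all genes. In GR-mKO liver 1 was higher and 1 lower, against 2.80% and 2.82%. *Insig2*, which retains SREBP precursors in the endoplasmic reticulum, stood at 40.7 and 340.4 CPM in vehicle- and CORT-treated GRfl/fl liver and at 38.2 and 118.3 CPM in GR-mKO liver, and rose in both (3.05, 2.96 to 3.17, and 1.62, 1.52 to 1.75). *Insig1*, its SREBP-responsive homolog, stood at 127.9 and 65.4 CPM in GRfl/fl and at 284.8 and 116.6 CPM in GR-mKO liver. It was lower under CORT in both genotypes, just under 2-fold in GRfl/fl mice (-0.96) and past it in GR-mKO mice (-1.28). *Mlxipl*, which encodes ChREBP, rose by 1.18 (1.08 to 1.29) in GRfl/fl liver and differed by -0.18 in GR-mKO liver. *Ppargc1b*, a coactivator of SREBP-1, stood at 4.68 and 1.90 CPM in GRfl/fl liver, a fall past 2-fold, and at 3.49 and 1.63 CPM in GR-mKO liver (-0.91).

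Elongases and desaturases other than *Elovl6* and *Scd1* fell where they passed 2-fold. Of 12 tested, 0 rose and 3 fell with CORT in GRfl/fl liver, against 5.90% and 5.72% of all genes. In GR-mKO liver 0 rose and 4 fell, against 2.80% and 2.82%. *Elovl2*, *Fads1* and *Fads2*, which build long polyunsaturated fatty acids, changed by -2.47, -2.39 and -2.23 in GRfl/fl liver and by -1.03, -1.14 and -1.34 in GR-mKO liver. *Elovl3* was the other one that fell in GR-mKO liver, from 62.4 to 25.5 CPM, while GRfl/fl liver had 72.2 and 112.1 CPM. Of 4 tested genes of malonyl-CoA use and restraint, *Cpt1a*, the oxidation enzyme that malonyl-CoA inhibits, fell from 321.3 to 113.3 CPM in GRfl/fl liver and stood at 272.6 and 189.5 CPM in GR-mKO liver (-0.52), and *Trib3* fell in both genotypes. The supply genes for acetyl-CoA and NADPH gave 1 of 7 higher (*Pgd*, 1.03) in GRfl/fl liver and 0 in GR-mKO liver. Of 7 genes of mitochondrial fatty acid synthesis 0 passed 2-fold in either genotype.

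Between genotypes under vehicle, 2 of the 45 listed genes were higher in GR-mKO liver, *Insig1* (1.15) and *Nr1h2* (1.88), which encodes the liver X receptor LXRβ, and 0 were lower, against 1.26% and 1.04% of all genes. Under CORT 4 were higher and 3 lower, against 2.44% and 2.27%. *Elovl2* (1.31), *Fads1* (1.60), *Fads2* (1.01) and *Usf1* (1.08) stood higher in GR-mKO liver, and *Elovl3* (-2.11), *Mlxipl* (-1.02) and *Insig2* (-1.52) stood lower.

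**Figure D3:**
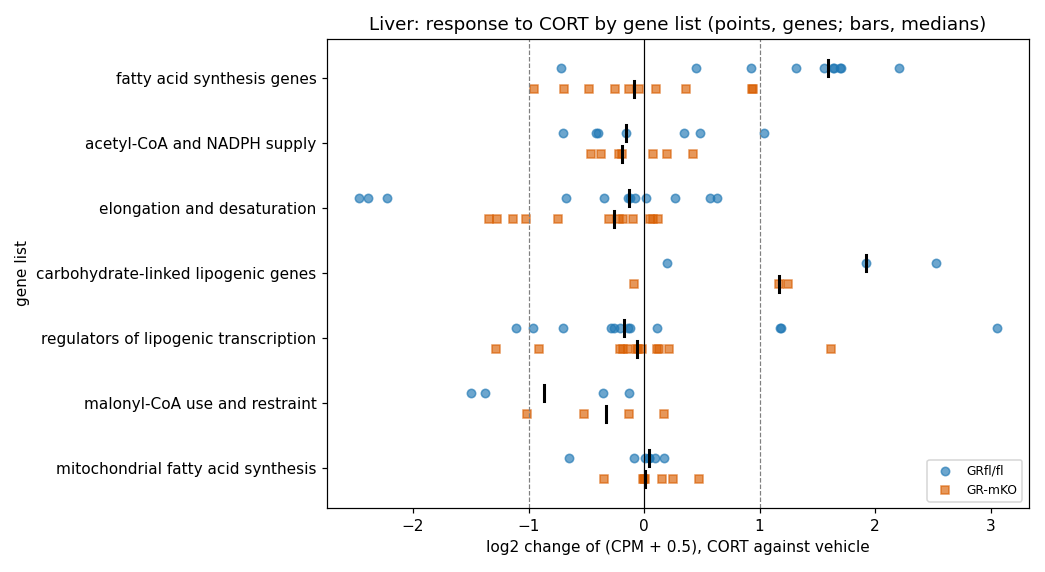
Log2 change of (CPM + 0.5) with CORT in liver for the 10 fatty acid synthesis genes and the tested genes of 6 further lists. Points are genes, blue circles for GRfl/fl and orange squares for GR-mKO mice, and black bars are medians. Medians of the fatty acid synthesis genes are 1.59 and -0.09, and those of the carbohydrate-linked genes 1.92 and 1.16.

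In gastrocnemius, CORT was compared with vehicle to ask which lipogenic transcripts of muscle respond. In GRfl/fl mice 6 of the 10 genes rose with CORT and 0 fell, against 3.26% higher and 4.72% lower among all 13543 genes tested. With median-of-ratios factors these shares were 4.02% and 3.83%. In GR-mKO mice 3 of 10 (*Acaca*, *Fasn* and *Scd1*) rose and 0 fell, against 1.51% and 5.02%, or 1.93% and 3.66% with TMM factors and 1.91% and 3.68% with median-of-ratios factors. The medians of the 10 genes were 1.19 and 0.60, while those of all genes were -0.08 and -0.10. In GR-mKO mice both kinds of factor raised the median of all genes by 0.13.

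*Scd1* stood at 180.8 and 967.3 CPM in vehicle- and CORT-treated GRfl/fl muscle and at 229.2 and 977.3 CPM in GR-mKO muscle. It rose by 2.42 (2.37 to 2.47) and 2.09 (2.05 to 2.14). *Fasn* stood at 31.5 and 176.8 CPM in GRfl/fl muscle and at 31.0 and 130.0 CPM in GR-mKO muscle, and rose by 2.47 (2.36 to 2.61) and 2.05 (1.94 to 2.19). The libraries of CORT-treated mice were thus high in both genotypes for both genes. *Acaca* had the same order, at 24.4 and 63.3 CPM in GRfl/fl and at 20.5 and 47.4 CPM in GR-mKO muscle, with rises of 1.36 (1.22 to 1.53) and 1.19 (1.04 to 1.38). *Acacb*, the main muscle form of acetyl-CoA carboxylase, stood at 225.3 and 315.0 CPM in GRfl/fl muscle and at 163.9 and 202.8 CPM in GR-mKO muscle, with changes of 0.48 (0.43 to 0.54) and 0.31 (0.24 to 0.37). It was lower in GR-mKO muscle under each treatment without passing 2-fold.

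*Mid1ip1* differed most between genotypes in muscle. It stood at 20.8 and 51.7 CPM in vehicle- and CORT-treated GRfl/fl muscle and at 27.1 and 19.2 CPM in GR-mKO muscle, so it rose by 1.29 (1.15 to 1.48) in GRfl/fl mice and stood lower under CORT in GR-mKO mice (-0.49, -0.69 to -0.31). Its homolog *Thrsp* stood at 18.8 and 51.4 CPM in GRfl/fl muscle and at 26.4 and 48.8 CPM in GR-mKO muscle. *Thrsp* rose by 1.42 (1.28 to 1.62) in GRfl/fl mice and changed by 0.88 (0.74 to 1.04) in GR-mKO mice, which is in the same direction and under 2-fold, or 1.02 with either kind of factor, just past it. *Elovl6* was scarce, at 3.42 and 7.80 CPM in GRfl/fl muscle and at 4.09 and 4.43 CPM in GR-mKO muscle, with a rise of 1.08 (0.76 to 1.62) in GRfl/fl mice, which fell short of 2-fold with 1 CPM added, and an interval in GR-mKO mice that contained 0.

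*Acly* and *Me1*, which supply acetyl-CoA and NADPH, stayed under 2-fold with CORT in muscle. *Acly* stood at 13.9 and 21.1 CPM in GRfl/fl muscle and at 15.6 and 25.0 CPM in GR-mKO muscle, with changes of 0.59 (0.38 to 0.83) and 0.66 (0.47 to 0.88). *Me1* stood at 294.5 and 316.1 CPM in GRfl/fl and at 233.1 and 339.3 CPM in GR-mKO muscle, with changes of 0.10 (0.05 to 0.15) and 0.54 (0.49 to 0.60). The *Srebf1* entry stood at 43.8 and 26.4 CPM in GRfl/fl muscle and at 24.0 and 22.2 CPM in GR-mKO muscle. Its change in GRfl/fl mice was -0.72 (-0.89 to -0.57), and in GR-mKO mice it was -0.11 by library total and 0.03 with TMM factors.

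Between genotypes, 0 of the 10 genes were 2-fold higher and 0 lower in GR-mKO gastrocnemius under vehicle, against 4.59% and 3.18% of all genes, with a median of 0.07 for the 10 and 0.07 for all genes. Under CORT 0 were higher and 1 was lower, against 4.40% and 5.31%, with medians of -0.33 for the 10 and 0.02 for all genes. *Mid1ip1* was the gene that passed 2-fold (-1.41, -1.61 to -1.26). *Fasn* differed by -0.44 (-0.52 to -0.37) and *Acacb* by -0.63 (-0.69 to -0.58) under CORT, while the 2 CORT-treated libraries had nearly equal *Scd1*, at a difference of 0.01 (-0.01 to 0.04) that became -0.02 with median-of-ratios factors.

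Several adipocyte markers also changed with CORT in gastrocnemius. Of 8 markers 5 rose and 1 fell with CORT in GRfl/fl muscle, against 3.26% and 4.72% of all genes. In GR-mKO muscle 4 rose and 0 fell, against 1.51% and 5.02%, and *Cidec*, among the 4, was listed at 0 CPM under vehicle. Medians of the 8 markers were 1.36 and 0.55. Their summed level, dominated by *Car3*, which fibers also express, was 2955 and 2145 CPM in vehicle- and CORT-treated GRfl/fl muscle and 5136 and 4782 CPM in GR-mKO muscle. Without *Car3* the other 7, a choice made after the values were seen, summed to 237.2 and 517.8 CPM in GRfl/fl muscle and to 337.2 and 444.9 CPM in GR-mKO muscle. *Adipoq*, the fat cell hormone adiponectin, stood at 14.6 and 63.0 CPM in vehicle- and CORT-treated GRfl/fl muscle and at 16.8 and 48.2 CPM in GR-mKO muscle. *Plin1*, the lipid droplet protein perilipin 1, stood at 13.6 and 42.5 CPM in GRfl/fl muscle and at 14.5 and 29.7 CPM in GR-mKO muscle. For both, as for *Fasn* and *Scd1*, the CORT-treated libraries were the high ones in each genotype. The other markers were divided. *Cidec* stood at 12.6 and 72.8 CPM in GRfl/fl and at 0 and 49.3 CPM in GR-mKO muscle, and rose in both. *Retn* also rose in both, at 5.93 and 21.6 CPM and at 6.90 and 20.3 CPM. *Fabp4* rose in GRfl/fl muscle (135.9 and 294.8 CPM) and stood at 249.5 and 267.2 CPM in GR-mKO muscle. *Cfd*, the fat cell serine protease adipsin, stood at 53.4 and 22.6 CPM in GRfl/fl and at 48.8 and 29.6 CPM in GR-mKO muscle, so it fell in GRfl/fl mice (-1.22) and was lower under CORT in GR-mKO mice (-0.71). *Adrb3*, at 1.27 CPM or less, and *Car3* were also lower under CORT in both genotypes. They were lower by 0.74 log2 units each in GRfl/fl mice and by 0.25 and 0.15 log2 units in GR-mKO mice. In gonadal WAT *Cfd*, *Adrb3* and *Car3* were lower under CORT in both genotypes too, as were *Adipoq*, *Plin1* and *Fabp4*, while *Cidec* was higher. There *Cfd* stood at 5933 and 382.7 CPM in GRfl/fl and at 5552 and 620.1 CPM in GR-mKO fat.

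Set against gonadal WAT of the same group, *Adipoq* in gastrocnemius was at 0.386% of the fat level under vehicle and 3.12% under CORT in GRfl/fl mice, and at 0.388% and 1.82% in GR-mKO mice. *Scd1* was at 0.546% and 3.46% in GRfl/fl mice and at 0.881% and 2.87% in GR-mKO mice, and *Fasn* at 0.869% and 2.73% in GRfl/fl mice and at 1.47% and 3.52% in GR-mKO mice. Over the 4 groups the 8 adipocyte markers spread widely, since *Car3* was at 8.44% to 17.3% and the other 7 were at 0% to 5.91%. Each of those 7 was at a higher percent under CORT than under vehicle in both genotypes. With groups pooled, *Scd1*, *Fasn*, *Thrsp* (1.68% to 2.29%) and *Acaca* (2.55% to 5.60%) lay within the range of the 7. Of these, only *Scd1* and *Fasn* did so in each group taken alone. *Thrsp* lay above the 7 in vehicle-treated GRfl/fl mice (1.68% against 1.19% for *Fabp4*). *Acaca* lay above them under vehicle in both genotypes and in CORT-treated GR-mKO mice (5.60% against 4.78% for *Cfd*). *Acly* (4.33% to 7.04%) and *Elovl6* (3.56% to 11.3%) reached past the pooled range. *Me1* (17.5% to 32.4%) lay above the 7 and began at the top of the range of *Car3*, and *Mid1ip1* (34.2% to 73.4%) and *Acacb* (75.7% to 164%) lay above all 8. The part of fat cells within or around the muscle in the rises of *Scd1* and *Fasn* was not tested. Hepatocyte markers summed to 43.9 and 48.7 CPM in GRfl/fl muscle and to 134.2 and 358.5 CPM in GR-mKO muscle, and macrophage markers to 114.5 and 115.8 CPM and to 410.8 and 157.3 CPM.

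**Figure D4:**
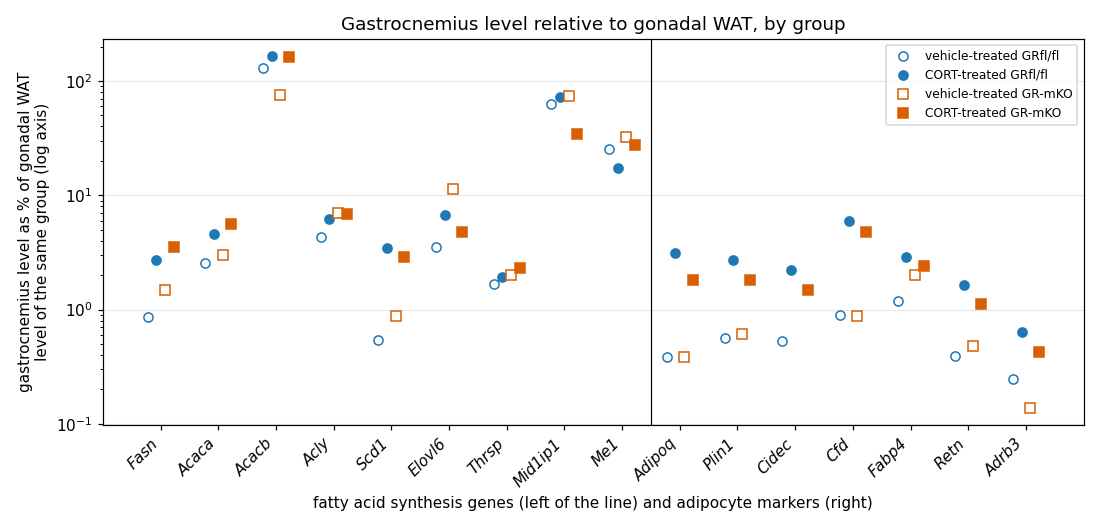
Level in gastrocnemius as a percent of the level in gonadal WAT of the same group, on a log axis, for the 9 fatty acid synthesis genes listed under the same transcript in both tissues and for 7 of the 8 adipocyte markers, without *Car3*. Blue circles are GRfl/fl and orange squares GR-mKO, open for vehicle and filled for CORT. *Scd1* goes from 0.546% to 3.46% and *Adipoq* from 0.386% to 3.12% with CORT in GRfl/fl mice, and *Cidec*, listed at 0 in vehicle-treated GR-mKO muscle, has no point there.

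Of 47 tested genes of the 6 pathway lists, 4 rose and 1 fell with CORT in GRfl/fl gastrocnemius, against 3.26% and 4.72% of all genes, and 1 rose and 1 fell in GR-mKO gastrocnemius, against 1.51% and 5.02%. Of 3 tested carbohydrate-linked genes 1 rose in each genotype. *Pnpla3*, a lipid droplet protein induced by SREBP-1c and ChREBP, stood at 2.47 and 21.4 CPM in vehicle- and CORT-treated GRfl/fl muscle and at 0.698 and 4.91 CPM in GR-mKO muscle, and rose in both. *G6pdx*, the first enzyme of the pentose phosphate path to NADPH, rose from 9.51 to 22.5 CPM in GRfl/fl mice and stood at 15.8 and 14.8 CPM in GR-mKO mice. *Fads3* and *Tecr*, a reductase of the elongation cycle, rose by 1.63 and 1.16 in GRfl/fl mice and changed by 0.36 and 0.13 in GR-mKO mice. *Tecr* was lower by 1.14 log2 units in GR-mKO muscle under CORT.

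*Ndufab1*, the mitochondrial acyl carrier protein, fell in GRfl/fl muscle from 157.2 to 70.9 CPM and stood at 121.4 and 120.9 CPM in GR-mKO muscle. *Mlxipl* stood at 68.6 and 34.1 CPM in vehicle- and CORT-treated GRfl/fl muscle and at 30.5 and 14.0 CPM in GR-mKO muscle, and it fell with CORT in GR-mKO mice (-1.09), lay at -0.997 in GRfl/fl mice, just under 2-fold, and was lower in GR-mKO muscle under vehicle (-1.16) and under CORT (-1.25). Between genotypes 0 listed genes were higher and 3 (*Mlxipl*, *Pnpla3* and *Scd4*) were lower in GR-mKO muscle under vehicle, against 4.59% and 3.18% of all genes, and 1 (*Nr1h2*) was higher and 3 (*Mlxipl*, *Pnpla3* and *Tecr*) were lower under CORT, against 4.40% and 5.31%.

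In gonadal WAT, CORT was compared with vehicle to follow the same genes in the tissue with most of their transcripts. In GRfl/fl mice 2 of the 10 (*Thrsp* and *Mid1ip1*) rose with CORT and 1 (*Srebf1*) fell, against 5.49% higher and 8.07% lower among all 14218 genes tested. In GR-mKO mice 1 (*Elovl6*) rose and 1 (*Srebf1*) fell, against 3.47% and 5.63%, or 4.54% and 4.20% with TMM factors and 4.52% and 4.23% with median-of-ratios factors. The medians of the 10 genes were 0.40 and 0.64 beside -0.07 and -0.12 for all genes, and in GR-mKO mice both kinds of factor raised the median of all genes by 0.12.

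*Srebf1* had the largest change in this tissue, at 218.6 and 52.2 CPM in vehicle- and CORT-treated GRfl/fl fat and at 269.1 and 87.4 CPM in GR-mKO fat. It fell with CORT in both genotypes, by 2.06 log2 units (-2.17 to -1.97) and by 1.62 log2 units (-1.70 to -1.54). *Fasn* stood at 3627 and 6469 CPM in GRfl/fl and at 2111 and 3698 CPM in GR-mKO fat, with changes of 0.83 (0.82 to 0.85) and 0.81 (0.79 to 0.83). *Thrsp* stood at 1119 and 2659 CPM in GRfl/fl and at 1323 and 2131 CPM in GR-mKO fat, a rise of 1.25 (1.23 to 1.27) and a change of 0.69 (0.67 to 0.71). *Mid1ip1* stood at 33.1 and 70.7 CPM in GRfl/fl and at 36.9 and 56.0 CPM in GR-mKO fat, a rise of 1.08 (0.96 to 1.23) and a change of 0.60 (0.47 to 0.74). The CORT-treated libraries were thus the higher ones for all 3 of these genes in each genotype.

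*Acaca* stood at 954.6 and 1385 CPM in GRfl/fl and at 682.1 and 846.2 CPM in GR-mKO fat, with changes of 0.54 (0.51 to 0.56) and 0.31 (0.28 to 0.34). *Acacb* stood at 173.0 and 192.2 CPM in GRfl/fl and at 216.7 and 124.2 CPM in GR-mKO fat, with changes of 0.15 (0.09 to 0.22) and -0.80 (-0.87 to -0.73). *Me1* stood at 1170 and 1808 CPM in GRfl/fl and at 720.2 and 1237 CPM in GR-mKO fat, with changes of 0.63 (0.60 to 0.65) and 0.78 (0.75 to 0.81). None of these passed 2-fold, and *Acacb* was the one of the 3 whose direction differed between genotypes. *Acly* stood at 321.3 and 337.9 CPM in GRfl/fl and at 221.9 and 362.8 CPM in GR-mKO fat, with changes of 0.07 (0.02 to 0.12) and 0.71 (0.66 to 0.76). *Elovl6* stood at 95.9 and 115.0 CPM in GRfl/fl and at 36.3 and 93.3 CPM in GR-mKO fat, and the vehicle-treated GR-mKO library was the low one. Its changes were 0.26 (0.17 to 0.35) and 1.35 (1.24 to 1.49). *Scd1* stood at 33087 and 27959 CPM in GRfl/fl and at 25997 and 34014 CPM in GR-mKO fat, with changes of -0.24 (-0.25 to -0.24) and 0.39 (0.38 to 0.39).

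Between genotypes under vehicle, 0 of the 10 genes were higher and 1 was lower by 2-fold in GR-mKO fat, against 1.07% and 1.15% of all genes, and under CORT 0 were higher and 0 lower, against 1.43% and 1.19%. *Elovl6* was the gene that passed 2-fold under vehicle (-1.39, -1.53 to -1.28). The medians were -0.42 and -0.33 beside 0.02 and -0.03 for all genes. *Fasn* was lower in GR-mKO fat by 0.78 log2 units (-0.80 to -0.76) under vehicle and by 0.81 log2 units (-0.82 to -0.79) under CORT. *Me1* differed by -0.70 (-0.73 to -0.67) and -0.55 (-0.57 to -0.52), and *Acaca* by -0.48 (-0.52 to -0.45) and -0.71 (-0.74 to -0.68). *Srebf1* stood higher in GR-mKO fat, by 0.30 (0.24 to 0.36) and 0.74 (0.63 to 0.86). For these 4 genes the direction under vehicle and under CORT was the same, and none of the differences reached 2-fold.

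Summed adipocyte markers in gonadal WAT were 59659 and 38211 CPM in vehicle- and CORT-treated GRfl/fl fat and 63146 and 46247 CPM in GR-mKO fat. Without *Car3*, the highest of them, they summed to 28004 and 18938 CPM and to 29428 and 21235 CPM. Macrophage markers summed to 772.0 and 1854 CPM in GRfl/fl and to 980.9 and 1853 CPM in GR-mKO fat, and endothelial markers to 514.0 and 199.1 CPM and to 482.0 and 270.1 CPM. Their part in the changes of the 10 genes was not tested.

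**Figure D5:**
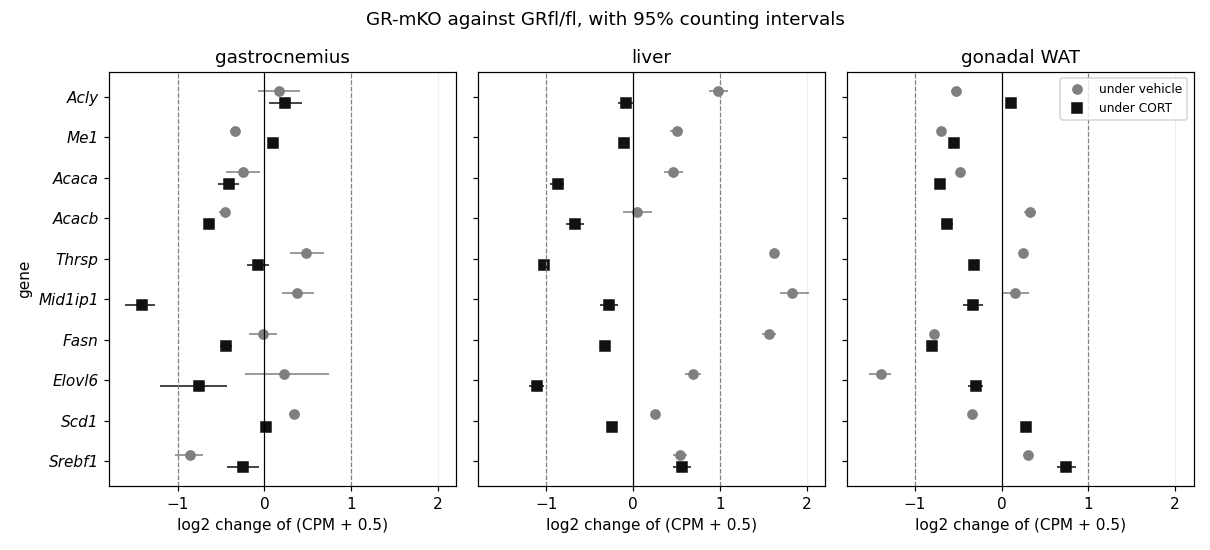
Log2 difference of (CPM + 0.5) between GR-mKO and GRfl/fl mice for each gene, with 1 panel a tissue, gray circles under vehicle and black squares under CORT. Lines are 95% exact counting intervals of the ratio and dashed lines mark 2-fold. In liver all 10 circles lie above 0 and 9 of the 10 squares lie below it.

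Of 48 tested pathway genes, 3 rose and 1 fell with CORT in GRfl/fl fat, against 5.49% and 8.07% of all genes, and 5 rose and 0 fell in GR-mKO fat, against 3.47% and 5.63%. *Scd2*, a desaturase isoform, stood at 221.0 and 761.7 CPM in vehicle- and CORT-treated GRfl/fl fat and at 145.3 and 587.0 CPM in GR-mKO fat, and rose in both (1.78 and 2.01) while *Scd1* did not. Near-identical stretches of *Scd1* and *Scd2* may share reads, so their split is uncertain. *G6pdx* stood at 326.1 and 799.6 CPM in GRfl/fl fat and at 312.9 and 753.7 CPM in GR-mKO fat, and rose in both (1.29 and 1.27). *Pgd*, the next dehydrogenase of that path, rose by 1.15 and *Pnpla3* by 1.08 in GR-mKO fat, and in GRfl/fl fat their changes of 0.98 and 0.88 lay under 2-fold. Of 12 regulators 0 passed 2-fold in either genotype. *Elovl7* also rose in both genotypes but stayed at or under 1.81 CPM. *H2-Ke6*, the mitochondrial dehydrogenase HSD17B8, fell from 47.1 to 18.1 CPM in GRfl/fl fat and stood at 41.5 and 24.5 CPM in GR-mKO fat (-0.75). *Acss2*, acetyl-CoA synthetase, was lower in GR-mKO than GRfl/fl fat under vehicle, at 128.4 against 270.0 CPM. Under CORT 0 of 48 genes passed 2-fold between genotypes, against 1.43% higher and 1.19% lower among all genes.

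Genes that varied most like *Fasn* were ranked by Pearson's r of log2(CPM + 0.5), centered within each tissue, over the 12 libraries, among 4624 genes with a mean of at least 10 CPM in each tissue. The 5 highest were *Acaca* (0.89), *Mpi* (0.89), *Cdo1* (0.88), *Acly* (0.86) and *Hp* (0.86). *Mpi* encodes mannose phosphate isomerase, *Cdo1* cysteine dioxygenase and *Hp* haptoglobin. Of the other members, *Thrsp* had rank 9, *Scd1* rank 12, *Mid1ip1* rank 113, *Me1* rank 137 and *Acacb* rank 609. *Srebf1* had an r of -0.46 at rank 3877, and *Elovl6* was too low in gastrocnemius to be ranked. The 12 points share their libraries and totals between genes, and these values are descriptions.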

How the data were processed

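The deposited values are expected counts (estimated counts), which the authors made from paired-end reads of pooled RNA with Salmon 1.2.1, per the submitters' processing notes, on GENCODE M20 protein-coding transcripts (GRCm38), imported with length-scaled abundances and R 3.5.0. Of entries with the same symbol, that with the largest total was retained by the authors, so each bears 1 transcript identifier, and whether it holds the gene's sum was not settled. Here counts were divided by the library total to give CPM. Tests in a tissue were limited to genes with counts in each of its 4 libraries, which all 10 members had. With 1 library a group, the study's NOISeq calls rest on simulated samples and were not computed. A 2-fold change of log2(CPM + 0.5) was used in their place. Intervals are 95% Wilson (levels) or exact Clopper-Pearson (ratios, without the 0.5) on counts rounded to whole numbers. They cover counting error only, not the spread between pools or the assignment of reads to transcripts, and 3 counts were taken as the floor.

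Members, pathway and marker lists were chosen with earlier results of these data known, and some genes of the lists are not reported here. In each list the 4 genes past 2-fold with the largest change could be named in a comparison, and the 5 genes most like *Fasn* were ranked by correlation. Symbols *Hsd17b8* and *Tf* were read as *H2-Ke6* and *Trf*. TMM factors came from edgeR 4.0.16 in R 4.3.3, and other values from Python 3.11.15 with pandas 2.3.3 and scipy 1.17.1. The code was tested on simulated data. Gene positions came from GENCODE M21 on the same build. Alternatives were TMM and median-of-ratios factors, 0.1 or 1 CPM added, no filter or a mean of at least 10 CPM, and a 1.5-fold threshold. Levels of gastrocnemius relative to gonadal WAT and marker sums without *Car3* were added after the values were seen.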

Additional observations from a re-analysis of the deposited data

Results flagged for a closer look

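For 8 of 30 pairs of responses (10 genes in 3 tissues) the log2 change with CORT had opposite signs in GRfl/fl and GR-mKO mice. These were 5 of 10 genes in liver, 1 of 10 in gastrocnemius and 2 of 10 in gonadal WAT, against 37.1%, 41.6% and 27.5% of all genes tested, so the number of such pairs is not a result about these genes. Some of the changes were close to 0. The difference between genotypes was not tested in any of them, because each group had 1 library. In liver the GRfl/fl response minus the GR-mKO response was 1.88 for *Fasn* (1.63 and -0.25), 2.66 for *Thrsp* (1.70 and -0.95), 1.79 for *Elovl6* (1.31 and -0.48), 1.06 for *Acly* (0.93 and -0.13) and 0.50 for *Scd1* (0.45 and -0.05). In gastrocnemius it was 1.78 for *Mid1ip1* (1.29 and -0.49). In gonadal WAT it was 0.95 for *Acacb* (0.15 and -0.80) and -0.63 for *Scd1* (-0.24 and 0.39). The 5 liver values share the vehicle-treated GRfl/fl library, which was the lowest of the 4 for each of these genes.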

How the results depend on the processing

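No paired analysis was possible because each group had 1 library and no replicate number, and for the same reason no library could be left out. Adding 0.1 or 1 CPM, dropping the filter on low values or requiring a mean of 10 CPM moved 0 of the 12 counts of members past 2-fold by more than 1.5 times. With TMM or median-of-ratios factors 11 of 12 counts stayed within 1.5 times, the gastrocnemius count for CORT in GR-mKO mice going from 3 to 4 (*Thrsp*, higher), and the liver count for CORT in GR-mKO mice went from 0 to 1 (*Thrsp*, lower). Of the 120 member changes, none past 2-fold changed sign under these factors or additions. A threshold of 1.5-fold gave, for CORT in GRfl/fl and GR-mKO mice and for genotype under vehicle and CORT, these totals of members where they moved. In gastrocnemius they were 5 in GR-mKO mice (all higher), 1 between genotypes under vehicle (*Srebf1*, lower) and 3 under CORT (all lower). Of all genes, 4.32% and 14.6%, 14.7% and 9.33%, and 14.2% and 13.6% were higher and lower at 1.5-fold in these comparisons. In liver they were 4 in GR-mKO mice (*Acacb* and *Me1* higher, *Thrsp* and *Srebf1* lower), 5 under vehicle (all higher) and 4 under CORT (all lower). Of all genes, 9.44% and 8.31%, 5.78% and 4.13%, and 9.27% and 7.26% were higher and lower at 1.5-fold in these comparisons. In gonadal WAT they were 5 in GRfl/fl mice (*Srebf1* lower, the rest higher) and 8 in GR-mKO mice (*Acacb* and *Srebf1* lower, the rest higher). They were 3 under vehicle (all lower) and 4 under CORT (*Srebf1* higher, the rest lower). Of all genes, 13.4% and 19.2%, 8.70% and 16.4%, 4.68% and 4.99%, and 5.17% and 5.45% were higher and lower at 1.5-fold in these comparisons. Depth limited *Elovl6* in gastrocnemius most, with 67.8 counts in its lowest library.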
